A study of Homo sapiens with 32 samples.

Results

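NF-kB is a family of dimeric transcription factors whose activity is set by inhibitors that the factors themselves induce. The transcripts of 10 genes of this circuit are described here: the subunit genes NFKB1, NFKB2, REL, RELA and RELB, the IkB inhibitor genes NFKBIA, NFKBIE and NFKBIZ, and the feedback genes TNFAIP3 and BIRC3. They were found by gene symbol in the count table, where each symbol had 1 row, so they are 10 of 60332 rows. In wild-type MCF10A cells NFKBIZ was higher 5 days after radiation with DMSO than in untreated cells, whose label names neither DMSO nor a day. TNFAIP3, BIRC3 and NFKBIZ were lower with a CDK1 inhibitor. No call there held with the compared libraries only, a setting where 0 of all 14358 genes tested were called. Every one of the genes was higher in irradiated RPE-1 cells that lacked p53 or carried the label WT cGAS than in wild-type RPE-1, in comparisons where 66.7% and 59.8% of all tested genes differed.

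In resting cells the IkB proteins hold NF-kB dimers in the cytoplasm. Signals from cytokine receptors, Toll-like receptors or damaged DNA activate the IkB kinase (IKK) complex, IkB is destroyed, and dimers enter the nucleus. RELA, REL and RELB carry activation domains, while NFKB1 and NFKB2 encode the precursors p105 and p100, which also act as inhibitors until they are processed to p50 and p52. NFKBIA encodes IkB-alpha, NFKBIE encodes IkB-epsilon, and NFKBIZ encodes IkB-zeta, a nuclear cofactor that can raise the transcription of some targets. TNFAIP3 encodes A20, a ubiquitin-editing enzyme that shuts off signalling to IKK, and BIRC3 encodes cIAP2, a ubiquitin ligase downstream of tumour necrosis factor (TNF) receptors. Most of these genes are themselves NF-kB targets, which is why their mRNA is often read as a trace of past NF-kB activity. mRNA does not report the nuclear entry or the processing of the proteins.

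The libraries were 32, in 16 groups of 2, of polyadenylated RNA from 2 human cell lines. MCF10A is a non-transformed breast epithelial line, here grown with EGF, hydrocortisone, insulin and cholera toxin. hTERT RPE-1 is a retinal pigment epithelial line immortalised with telomerase and grown in serum without these additions. Irradiated cells received 10 Gy. Drugs were added 1 h before and kept until collection. Part 1 held MCF10A wild-type (WT) cells irradiated with DMSO and collected at 3 or 5 days, WT cells irradiated with a CDK1 inhibitor (CDK1i) at 5 days, irradiated cGAS KO, STING KO and XRCC4 KO cells at 5 days, and untreated WT cells. Part 2 held MCF10A cells irradiated and collected at 3 days: XRCC4 p53 double knockout (DKO) with and without an ATR inhibitor (ATRi), XRCC4 KO with and without ATRi, p53 KO and WT. In part 3, RPE-1 cells had radiation and ATRi and were collected at 3 days: p53 KO, a group labelled WT cGAS, and WT. All RPE-1 groups share radiation and ATRi, and no knockout cells were measured without radiation. DMSO is named for irradiated WT cells of part 1 and for no knockout. The untreated label names neither DMSO nor a day. Radiation, DMSO and time in culture therefore cannot be told apart in comparisons with untreated cells. Knockouts were made with lentiviral CRISPR-Cas9 and grown as single-cell colonies, and the labels name no clone, so each knockout comparison sets line against line, and the lost gene and other differences between lines cannot be told apart. cGAS senses cytosolic DNA and STING relays its signal. XRCC4 serves in end joining of DNA breaks, ATR is a checkpoint kinase, and CDK1 drives entry into mitosis.

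Total counts ran from 5590061 to 18585999 per library. Library pairs differed by a chi-square of 21.5 to 45.1 per gene in the 4 WT groups of part 1, 27.6 in STING KO, and at most 3.38 elsewhere, so part 1 resolves less than parts 2 and 3. The labels do not state separate cultures for paired libraries, so p-values measure only the spread between these libraries, which may be technical. Groups of 2 libraries can lie apart without a true difference. The share of all genes whose groups did not overlap was not counted, so a lack of overlap is given below as description only. MB21D1, which encodes cGAS, was at 1.24 and 1.30 CPM (a library's counts over its TMM-scaled total) in cGAS KO, against 17.2 and 15.1 CPM in WT at 5 days. TMEM173, which encodes STING, had 127 and 103 counts in STING KO, against 1214 and 894 counts in WT. In RPE-1, MB21D1 was at 339 and 345 CPM in WT cGAS, against 0.143 and 6.35 CPM in the WT libraries, which differ from each other. XRCC4 mRNA does not check the XRCC4 KO label, since small edits need not lower an mRNA, and p53 KO was not checked here. All 9 basal epithelial markers were present in MCF10A at a median above 1 CPM. Of 11 pigment epithelium and mesenchymal markers, OTX2, CDH2, VIM, FN1, COL1A1, MITF and BEST1 had a median above 1 CPM in RPE-1. PMEL had a median of 0.424 CPM there, and RPE65, RLBP1 and TYR were at or below 0.0635 CPM. MITF, CDH2, VIM, FN1 and COL1A1 had a median above 1 CPM in MCF10A too. VIM and FN1 had medians of 447 and 280 CPM in MCF10A, against 4416 and 16699 CPM in RPE-1. Of 13 immune and blood cell markers, 10 had a median below 1 CPM in each line, and MS4A1 was at 0 in 26 of 26 MCF10A and 6 of 6 RPE-1 libraries. The summed level of these 13 genes, most of it from the lysosomal gene CD68, is given beside the results it moves with.

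The promoters of these genes are shown because the members rose and fell together in several comparisons and because NF-kB binds a known sequence, the kB site. Windows from 250 bases before to 50 after each annotated start (RefSeq, GRCh38.p14) were found for 8 of the 10 genes, 13 windows in all. RELB and NFKBIE had none. The pattern, the half-site GGGNN followed directly by TTNCC (N is any base), was searched on both strands and was chosen after the windows had been read. The pattern stood in 1994 of 35116 windows of all genes (5.68%) and in 9 of the 13 windows here, which belong to 7 genes. Since the pattern was chosen with these windows known, these shares do not test for an excess. Stretches before the start are given 5′ to 3′ on the strand of the gene, with matches in capitals. TNFAIP3 is shown for the largest response in RPE-1, NFKBIA as the classical target, BIRC3 for its response to ATRi and NFKBIZ for its rise after radiation in MCF10A, and NFKB1, NFKB2 and REL as subunit genes.
TNFAIP3, chr6:137867157-137867248, plus strand: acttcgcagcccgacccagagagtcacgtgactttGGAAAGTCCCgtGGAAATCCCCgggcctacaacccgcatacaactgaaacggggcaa
NFKBIA, chr14:35404786-35404865, minus strand: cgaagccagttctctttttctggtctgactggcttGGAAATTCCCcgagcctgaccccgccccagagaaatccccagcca
BIRC3, chr11:102317250-102317329, plus strand: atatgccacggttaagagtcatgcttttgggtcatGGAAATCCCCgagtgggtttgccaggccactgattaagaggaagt
NFKBIZ, chr3:101827740-101827811, plus strand: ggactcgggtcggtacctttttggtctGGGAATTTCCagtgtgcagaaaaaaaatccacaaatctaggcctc
NFKB1, chr4:102501275-102501354, plus strand: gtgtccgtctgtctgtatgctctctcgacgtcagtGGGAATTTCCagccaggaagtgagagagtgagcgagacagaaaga
NFKB2, chr10:102394436-102394545, plus strand: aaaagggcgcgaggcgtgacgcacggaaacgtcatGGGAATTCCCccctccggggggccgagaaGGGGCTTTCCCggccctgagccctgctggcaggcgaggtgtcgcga
REL, chr2:60881493-60881572, plus strand: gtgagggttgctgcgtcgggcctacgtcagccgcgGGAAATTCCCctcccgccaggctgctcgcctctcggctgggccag
TNFAIP3 held 2 matches, 45 and 57 bases before the start, separated by a pair of bases. NFKB2 held 3 in this stretch, of which the later pair overlap by all but 1 base. The matches ended 71 bases before the start in NFKBIA, 39 in NFKB1, 36 in REL, 189 in BIRC3 and 213 in NFKBIZ. Neither of the 2 RELA windows held the pattern. A match is a description of the letters and not a shown binding site.

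Levels were compared between genes and lines on the FPKM scale, which is per length. In the 26 MCF10A libraries NFKBIA had the highest median level of the 10, 150 FPKM, followed by RELA at 61.6 FPKM and BIRC3 at 52.9 FPKM, and REL had the lowest at 2.86 FPKM. BIRC3 was the member whose ranges did not meet between the lines: it ranged from 0.867 to 12.8 FPKM with a median of 5.38 FPKM in the 6 RPE-1 libraries, against 15.6 to 156 FPKM in MCF10A. For the other 9 genes the ranges of the lines overlapped. NFKB2 had a median of 75.6 FPKM in RPE-1 and 37.1 FPKM in MCF10A, and NFKBIZ 81.8 FPKM and 28.0 FPKM. In the MCF10A groups that also had ATRi, BIRC3 was at 42.4 and 47.4 FPKM in XRCC4 KO and 156 and 142 FPKM in the DKO, above every RPE-1 library. The lines differ in medium too, so line and medium cannot be told apart.

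Part 1 first asked how radiation changed WT MCF10A cells over time. At 5 days NFKBIZ was the member that rose, while NFKBIA, RELB and NFKB1 fell, and TNFAIP3 and BIRC3 did not pass the test. NFKBIZ (ENSG00000144802, chromosome 3, 101546835 to 101579866, hg19) was at 27.7 and 39.7 CPM in untreated cells, 44.2 and 59.2 CPM at 3 days and 108 and 117 CPM at 5 days. Each of these WT libraries irradiated with DMSO lay above both untreated ones, and the 5-day libraries lay above the 3-day ones. Irradiated WT cells of part 2, also at 3 days but scaled apart from part 1, had 87.8 and 79.3 CPM of NFKBIZ. The gap between the parts was not tested. The log2 fold change at 5 days against untreated was 1.74 ± 0.37 (SE, edgeR adjusted p = 0.00828), with an adjusted p of 0.0583 without untreated replicate 1. NFKBIA (ENSG00000100906, chromosome 14, 35870717 to 35873955) went the other way, with 204 and 281 CPM untreated, 176 and 192 CPM at 3 days and 147 and 156 CPM at 5 days. These groups did not overlap, and the 5-day change was -0.68 ± 0.13 (edgeR adjusted p = 0.0049). RELB (ENSG00000104856, chromosome 19, 45504688 to 45541456) had 23.2 and 20.7 CPM at 5 days, against 34.0 and 29.3 CPM untreated (-0.53 ± 0.14, edgeR adjusted p = 0.0189). NFKB1 (ENSG00000109320, chromosome 4, 103422486 to 103538459) had 82.5 and 88.6 CPM, against 116 and 101 CPM (-0.35 ± 0.10, edgeR adjusted p = 0.0267). Both subunit genes were lower in each irradiated library of part 1 than in each untreated one. The calls of RELB and NFKB1 were lost without untreated replicate 1 (adjusted p = 0.103 and 0.147), without 5-day replicate 1 (0.0603 and 0.173) and without 5-day replicate 2 (0.109 and 0.0595). With only the 4 libraries compared, where 1132 of all 14495 genes tested were called, NFKBIZ alone stayed called, and NFKBIA had an adjusted p of 0.0883. REL, not called with all libraries (0.40, adjusted p = 0.223), passed without untreated replicate 1 (0.98, 0.00503).

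In all, 1 of 10 members rose and 3 fell at 5 days, where edgeR called 29.3% of all tested genes, 15.1% higher and 14.3% lower. The members' median log2 fold change was 0.10, against 0.00 over all genes tested. At 3 days 0 of 10 were called by edgeR, where 6.52% of all genes were (3.65% higher and 2.87% lower). An unadjusted p under 0.05 was seen for 3 members and for 3780 of all 15190 genes tested. DESeq2 and limma on FPKM called 0 members as well. RELB was nearest, with 23.5 and 19.7 CPM at 3 days (-0.54 ± 0.15, edgeR adjusted p = 0.0525). Without untreated replicate 1, REL and NFKBIA passed (edgeR adjusted p = 0.0254 and 0.0223), and without untreated replicate 2 NFKB1 passed (0.0497). Between 5 and 3 days edgeR called 0 of 10 members and 0.263% of all genes (0.217% higher and 0.0461% lower). There 1 member, NFKBIZ (1.13 ± 0.36, edgeR adjusted p = 0.2), had an unadjusted p under 0.05, as had 2207 of all 15190 genes tested. DESeq2 called NFKBIZ there (adjusted p = 0.0471) and limma on FPKM called 0.

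Around the members, the ligand genes that signal to NF-kB had 5 of 11 tested genes higher and 1 lower at 5 days, with a median log2 fold change of 0.40. Of 14 receptor genes 4 rose and 2 fell, among them TLR3, a sensor of double-stranded RNA, which had 62.6 ± 34.5 CPM at 5 days and 15.8 ± 2.54 CPM untreated (SD, n = 2). Of 26 genes of the IKK complex and its adaptors 5 rose and 4 fell. MYD88, the adaptor of Toll-like and interleukin-1 receptors, rose (2.07 ± 0.37, edgeR adjusted p = 0.00384). IKBKB, a catalytic subunit of IKK, fell (-0.53 ± 0.15, 0.022). Of 23 other NF-kB target genes 5 rose and 3 fell. The summed immune marker level was 33.3 and 46.8 CPM in untreated cells, 50.9 and 69.6 CPM at 3 days and 91.3 and 74.0 CPM at 5 days, and its part in these changes was not tested.

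**Figure D1:**
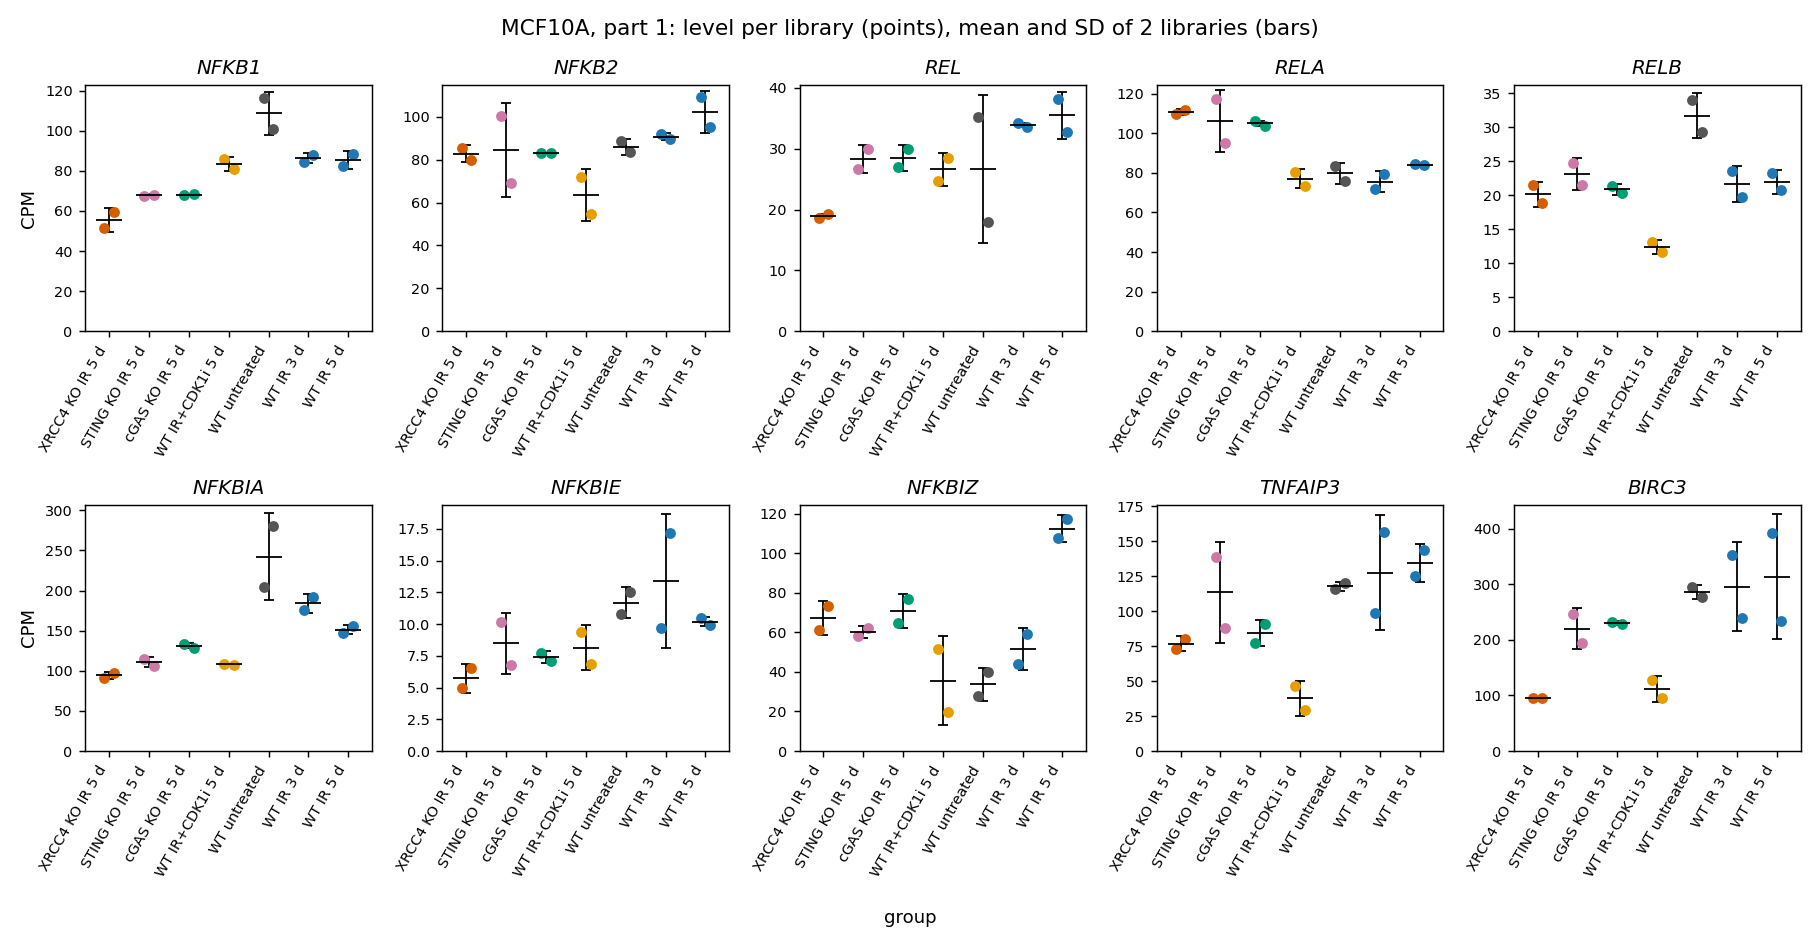
Level of each gene in the 14 MCF10A libraries of part 1, in CPM on linear axes that start at 0. Points are libraries, horizontal bars the mean of 2 libraries and whiskers its SD. NFKBIZ is highest at 5 days, 108 and 117 CPM, and TNFAIP3 is lowest with CDK1i, 46.7 and 29.1 CPM.

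The CDK1 inhibitor was tested in irradiated WT cells at 5 days, where the study asked about cell cycle arrest. All 10 members had a negative log2 fold change and 6 were called lower, with TNFAIP3, NFKBIZ and BIRC3 falling most. The deposited interval of TNFAIP3 (ENSG00000118503, chromosome 6, 138144810 to 138204449) spans 59640 bases, against 16125 bases in the GENCODE 29 annotation, and the gene overlaps AL357060.2. Whether this touches its counts was not tested. TNFAIP3 was at 46.7 and 29.1 CPM with CDK1i, against 125 and 144 CPM with DMSO. The groups were far apart (-1.83 ± 0.29, edgeR adjusted p = 0.00666), and the call held without each single library. BIRC3 (ENSG00000023445, chromosome 11, 102188181 to 102210134) had 128 and 95.4 CPM with CDK1i, against 394 and 235 CPM with DMSO (-1.49 ± 0.26, edgeR adjusted p = 0.00859). NFKBIZ had 51.5 and 19.6 CPM, against 108 and 117 CPM (-1.66 ± 0.36, 0.0211). Its CDK1i libraries differed from each other, and the change was -2.52 without CDK1i replicate 1. Among the subunits, RELB had 13.1 and 11.7 CPM, against 23.2 and 20.7 CPM (-0.82 ± 0.15, 0.00881), and NFKB2 (ENSG00000077150, chromosome 10, 104153867 to 104162286) 72.0 and 54.9 CPM, against 109 and 95.5 CPM (-0.69 ± 0.17, 0.0273). NFKBIA had 108 and 107 CPM, against 147 and 156 CPM (-0.49 ± 0.13, 0.039). NFKB1 and RELA did not pass, at -0.03 ± 0.10 and -0.13 ± 0.11, nor did REL and NFKBIE, at -0.42 ± 0.23 and -0.32 ± 0.28.

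The 6 of 10 called stand beside 12.1% of all genes called and 7.37% called lower (4.73% higher), and the members' median was -0.59, against -0.04 over all genes. Without 1 library the number called ran from 2 to 5. NFKBIA was lost without each of the 4 libraries (adjusted p = 0.0802 to 0.157), NFKB2 without DMSO replicate 1 or 2 or CDK1i replicate 2 (0.153, 0.0583 and 0.171), NFKBIZ without either DMSO library (0.0832 and 0.0797), RELB without DMSO replicate 1 or CDK1i replicate 2 (0.0645 and 0.0648), and BIRC3 without CDK1i replicate 2 (0.0648). With only the 4 libraries compared edgeR called 0 members (TNFAIP3 -1.82, adjusted p = 0.14) and 0 of all 14358 genes tested. DESeq2 called 6, and limma on FPKM called 3, or 2 without a filter on low values.

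Members of the other lists were lower with the inhibitor too: 13 of 23 other target genes, 6 of 11 ligand genes and 5 of 14 receptor genes were lower and 0 higher, with medians of -1.72, -1.47 and -1.04. Of the further IkB proteins and inhibitors 4 of 16 were lower, and of the IKK genes and adaptors 3 of 26, with 0 higher and medians of -0.12 and -0.18. CFB, complement factor B, was at 26.8 ± 16.2 CPM with CDK1i and 608 ± 203 CPM with DMSO, and IL1B, the interleukin-1 beta gene, at 31.9 ± 26.2 and 112 ± 33.0 CPM (SD, n = 2). TNIP3, an A20-binding inhibitor, fell to 0.774 ± 0.315 CPM, against 5.10 ± 1.67 CPM. The summed immune marker level moved in the same direction, 23.0 and 23.5 CPM with CDK1i, against 91.3 and 74.0 CPM with DMSO. Its part in the result was not tested. In bulk RNA, fewer cells of a kind and less RNA per cell cannot be told apart.

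The cGAS KO, STING KO and XRCC4 KO lines were each set against the same 2 WT libraries at 5 days, so the 3 comparisons share them. In cGAS KO 0 of 10 members were called by edgeR, where 13.5% of all genes were (6.65% higher and 6.88% lower). NFKB1 was at 67.9 and 68.4 CPM, against 82.5 and 88.6 CPM in WT (-0.33 ± 0.10, edgeR adjusted p = 0.0565). An unadjusted p under 0.05 was seen for 3 members and for 4341 of all 15190 genes tested. DESeq2 called NFKB1 (0.0446) and limma on FPKM called 0. With only the 4 libraries compared edgeR called 4, NFKB1, RELA, NFKBIZ and TNFAIP3, where 3167 of all 14530 genes tested were called. TNFAIP3 had 77.6 and 91.2 CPM in cGAS KO, against 125 and 144 CPM in WT (-0.67 ± 0.28, 0.144). In STING KO NFKBIA alone was called, with 115 and 106 CPM, against 147 and 156 CPM (-0.45 ± 0.13, 0.0442), where 15.2% of all genes were called, 7.73% lower and 7.43% higher. That call was lost without STING KO replicate 1 (0.112), without STING KO replicate 2 (0.2) and without WT replicate 1 or 2 (0.119 and 0.187). NFKBIZ had the largest member change in STING KO but did not pass. It was at 58.1 and 62.2 CPM, against 108 and 117 CPM (-0.90 ± 0.36, edgeR adjusted p = 0.125). With only the 4 libraries compared it alone was called (0.0331), where 864 of all 14339 genes tested were called. For 4 members and 4502 of all 15190 genes the unadjusted p was under 0.05. In cGAS KO NFKBIZ had 64.9 and 76.8 CPM (-0.67 ± 0.36, 0.253). The other target genes were lower in both lines. Of 23 tested, 10 fell in cGAS KO and 9 in STING KO, with 0 higher and medians of -1.49 and -1.36. ICAM1, an adhesion molecule, was at 3.43 ± 0.657 CPM in cGAS KO, 5.80 ± 1.79 CPM in STING KO and 45.5 ± 4.92 CPM in WT (SD, n = 2). Whether the members and the wider list differ in this was not tested.

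In XRCC4 KO cells at 5 days BIRC3, REL, NFKBIA and NFKB1 fell and RELA rose. BIRC3 had 94.6 and 95.4 CPM, against 394 and 235 CPM in WT (-1.72 ± 0.26, edgeR adjusted p = 0.00175). NFKB1 had 51.4 and 59.6 CPM, against 82.5 and 88.6 CPM (-0.62 ± 0.10, 0.00225), and these calls held in every alternative tried. NFKBIA had 91.2 and 97.5 CPM, against 147 and 156 CPM (-0.68 ± 0.13, 0.00539). REL (ENSG00000162924, chromosome 2, 61108656 to 61158745), whose counts were whole numbers in only 2 of 32 libraries and which overlaps AC010733.2 and RNU4-51P, had 18.6 and 19.2 CPM, against 38.1 and 32.8 CPM (-0.91 ± 0.24, 0.0214). RELA (ENSG00000173039, chromosome 11, 65421067 to 65430565) had 110 and 112 CPM, against 84.3 and 84.1 CPM (0.39 ± 0.11, 0.0256). None of these groups overlapped. RELA also lay above the same WT libraries, without a call, in cGAS KO and STING KO. It had 106 and 104 CPM (0.32 ± 0.11, edgeR adjusted p = 0.0812) and 117 and 95.1 CPM (0.34 ± 0.11, 0.0659). NFKB1 had 67.7 and 68.2 CPM in STING KO (-0.33 ± 0.10, 0.0511). NFKBIZ was lower in XRCC4 KO without a call, 61.1 and 73.5 CPM, against 108 and 117 CPM (-0.74 ± 0.36, 0.158). REL and RELA lost their calls without each single library of the 4 (adjusted p = 0.0507 to 0.128 and 0.0938 to 0.12), and NFKBIA without XRCC4 KO replicate 1 (0.0586). The members called were 4 lower and 1 higher, where 24.7% of all genes were called, 12.4% lower and 12.4% higher, and the members' median was -0.71, against -0.03 over all genes. Of the other target genes 14 of 23 fell and 0 rose (median -2.10), with ICAM1 at 2.31 ± 0.690 CPM, against 45.5 ± 4.92 CPM. Immune markers summed to 54.6 and 58.4 CPM in XRCC4 KO, 64.6 and 64.1 CPM in cGAS KO and 59.3 and 62.1 CPM in STING KO, each below the 91.3 and 74.0 CPM of WT, and its part in these results was not tested.

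Part 2 measured MCF10A at 3 days with libraries that varied little, so small differences passed the test and 49.7% to 71.8% of all genes were called in the comparisons between lines. In XRCC4 KO, NFKBIZ, NFKBIE, REL, NFKB1 and NFKB2 fell, and RELB, RELA, BIRC3 and TNFAIP3 rose. NFKBIZ was at 36.1 and 34.9 CPM, against 87.8 and 79.3 CPM in WT (-1.23 ± 0.07, edgeR adjusted p = 3.69e-14). NFKBIE (ENSG00000146232, chromosome 6, 44225903 to 44233525) had 11.6 and 10.5 CPM, against 16.7 and 18.7 CPM (-0.69 ± 0.12, 2.26e-05), and REL 13.99 and 14.7 CPM, against 22.6 and 22.2 CPM (-0.64 ± 0.09, 2.07e-06). RELB had 37.6 and 36.0 CPM, against 26.7 and 26.0 CPM (0.48 ± 0.08, 4.62e-06). The changes of RELA and BIRC3, 0.39 ± 0.06 and 0.37 ± 0.07, were smaller than that of NFKBIZ, and those 2 calls and that of TNFAIP3 (0.20 ± 0.05) did not hold with limma on FPKM (0.15, 0.18 and 0.05, adjusted p = 0.368, 0.0856 and 0.738 with a pseudocount of 1). The 9 of 10 members called stand beside 56.1% of all genes (28.6% higher and 27.5% lower), with a members' median of -0.14 and -0.01 over all genes. The other target genes fell in 19 of 26 and rose in 3 (median -1.95), and IL1B was at 134 ± 0.176 CPM, against 1048 ± 6.66 CPM in WT (SD, n = 2). Immune markers summed to 59.5 and 61.2 CPM in XRCC4 KO, against 46.5 and 47.3 CPM in WT, and its part was not tested.

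In p53 KO cells NFKB1, REL, BIRC3 and TNFAIP3 rose, and NFKB2, RELB and NFKBIZ fell. NFKB1 had 105 and 106 CPM, against 79.9 and 84.3 CPM in WT (0.36 ± 0.05, edgeR adjusted p = 7.67e-07), BIRC3 300 and 335 CPM, against 230 and 220 CPM (0.49 ± 0.07, 7.29e-05), and REL 27.9 and 28.5 CPM, against 22.6 and 22.2 CPM (0.33 ± 0.08, 0.00111). These 3 groups did not overlap. TNFAIP3 rose by 0.12 ± 0.05 on the log2 scale (0.0231), and NFKB2, RELB and NFKBIZ fell by 0.22, 0.24 and 0.15. The calls of TNFAIP3, RELB and NFKBIZ were lost with DESeq2 (0.108, 0.0744 and 0.152), and on the FPKM scale RELB and NFKBIZ were 0.02 and 0.08 higher. The 7 of 10 called stand beside 52.9% of all genes (25.9% higher and 27.0% lower), with a members' median of 0.08 and 0.01 over all genes. Without 1 library 5 to 7 were called: TNFAIP3 was lost without either WT library or p53 KO replicate 1 (0.0702 to 0.133), RELB without either WT library or p53 KO replicate 2 (0.0501 to 0.0711), and NFKBIZ without WT replicate 1 or p53 KO replicate 2 (0.371 and 0.155).

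The study then asked what loss of p53 does in cells that lack XRCC4. In the DKO against XRCC4 KO, REL, NFKB1, NFKBIZ, NFKBIE, NFKBIA and BIRC3 rose and RELA fell. REL had 30.7 and 26.5 CPM in the DKO, against 13.99 and 14.7 CPM in XRCC4 KO (1.00 ± 0.09, edgeR adjusted p = 2.47e-10). NFKB1 had 105 and 106 CPM, against 69.7 and 68.0 CPM (0.61 ± 0.05, 7.58e-11), and NFKBIZ 48.2 and 45.9 CPM, against 36.1 and 34.9 CPM (0.41 ± 0.07, 2.9e-05). NFKB1, REL and RELA in the DKO were close to their p53 KO levels, with differences of -0.01 ± 0.05, 0.02 ± 0.08 and 0.02 ± 0.06 that did not pass, while NFKBIZ in the DKO stayed below p53 KO, 77.0 and 73.0 CPM (-0.67 ± 0.06, 1.78e-09). BIRC3 rose by 0.21 ± 0.07 (0.0174), a call lost without each single library of the 4 (0.0701 to 0.106), and NFKBIE by 0.38 ± 0.12 (0.00901), lost without XRCC4 KO replicate 2 (0.0985) or DKO replicate 1 (0.0606). RELA had 85.9 and 81.4 CPM, against 116 and 115 CPM (-0.46 ± 0.06, 9.03e-08). On the FPKM scale the RELA difference was 0.08, with 61.8 and 69.4 FPKM in the DKO, against 69.3 and 55.3 FPKM in XRCC4 KO, so its direction rests on the counts. The 7 of 10 called stand beside 64.9% of all genes (32.2% higher and 32.7% lower), with medians of 0.24 and 0.02. DKO against p53 KO called 4 of 10, where 49.7% of all genes were called (24.6% higher and 25.0% lower): RELB (0.64 ± 0.07) and TNFAIP3 (0.17 ± 0.04) higher, NFKBIZ and NFKBIE lower, NFKBIE not without p53 KO replicate 1 (0.149). The effect of p53 loss in XRCC4 KO minus that in WT was positive for REL (0.67 ± 0.12, edgeR adjusted p = 6.54e-05), NFKBIZ (0.56 ± 0.09, 2.93e-05), NFKB1 (0.25 ± 0.07, 0.00615) and NFKBIA (0.18 ± 0.06, 0.0252), and negative for RELA (-0.36 ± 0.08, 0.000731) and BIRC3 (-0.28 ± 0.10, 0.0355). For RELA the effect itself was -0.46 in XRCC4 KO and -0.10, not called, in WT. With limma on FPKM and a pseudocount of 1 the differences of REL and RELA were not called (0.43 and -0.15, adjusted p = 0.161 and 0.584). That is 6 of 10, where 43.7% of all genes were called, 20.9% positive and 22.8% negative. Without 1 library 3 to 7 were called: without WT replicate 2, NFKB1, NFKBIA and BIRC3 were lost (0.0586, 0.0568 and 0.104). BIRC3 was lost without each single library except p53 KO replicate 1 (0.0625 to 0.161) and with DESeq2 (0.0899), and NFKBIA also without WT replicate 1, p53 KO replicate 2, XRCC4 KO replicate 2 or DKO replicate 2 (0.0948 to 0.132). Of 26 other target genes 22 rose and 3 fell in the DKO against XRCC4 KO, median 1.26, and of 12 ligand genes 7 rose and 4 fell. Immune markers summed to 72.9 and 79.6 CPM in the DKO, against 59.5 and 61.2 CPM in XRCC4 KO, and its part was not tested.

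The ATR inhibitor was added to both lines. In the DKO, NFKBIE, BIRC3, RELB, TNFAIP3, NFKB2, RELA and NFKBIA were higher with it and NFKB1 was lower. BIRC3 had 574 and 583 CPM with ATRi, against 335 and 337 CPM without it (0.78 ± 0.07, edgeR adjusted p = 6.36e-07). NFKBIE had 24.6 and 25.0 CPM, against 14.6 and 14.1 CPM (0.79 ± 0.10, 1.33e-07), and RELB 55.9 and 51.5 CPM, against 36.3 and 33.2 CPM (0.62 ± 0.06, 4.46e-09). TNFAIP3 had 176 and 177 CPM, against 136 and 135 CPM (0.38 ± 0.04, 2.34e-08), NFKB2 155 and 155 CPM, against 122 and 122 CPM (0.35 ± 0.05, 3.15e-07), and NFKBIA 209 and 215 CPM, against 170 and 174 CPM (0.30 ± 0.04, 1.14e-06). In each of these the 2 ATRi libraries lay above both libraries without it. NFKB1 fell by 0.13 ± 0.05 (0.0251), a call lost with DESeq2 (0.165), without DKO replicate 1 (0.0662) or 2 (0.0644) and without DKO with ATRi replicate 2 (0.105), and it was 0.11 higher on the FPKM scale. In XRCC4 KO with ATRi BIRC3 was lower, 223 and 265 CPM, against 293 and 288 CPM (-0.25 ± 0.07, 0.0297), and NFKBIZ lower, 26.1 and 26.7 CPM, against 36.1 and 34.9 CPM (-0.43 ± 0.08, 0.0005). RELB and NFKBIE rose by 0.21 ± 0.07 (0.041) and 0.37 ± 0.13 (0.0448) there, calls that DESeq2 did not make (0.274 and 0.193). RELB there was lost without each single library of the 4 (0.063 to 0.239). BIRC3 was lost without XRCC4 KO replicate 1 or 2 or XRCC4 KO with ATRi replicate 1 (0.147, 0.114 and 0.105), and NFKBIE without XRCC4 KO replicate 1 or 2 or XRCC4 KO with ATRi replicate 2 (0.095, 0.269 and 0.45). With a replicate block NFKBIE was not called (0.0519).

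The members called with ATRi were 8 of 10 in the DKO, where 58.5% of all genes were called, 26.1% higher and 32.4% lower, and 4 of 10 in XRCC4 KO, where 17.0% were, 6.67% higher and 10.3% lower. Medians were 0.33 in the DKO and 0.08 in XRCC4 KO, with -0.02 and 0.00 over all genes. The difference of the 2 effects was called for 9 of 10 members, where 34.0% of all genes were called. It was largest for BIRC3 (1.03 ± 0.10, edgeR adjusted p = 4.94e-06), then NFKBIZ (0.46 ± 0.11, 0.00143), NFKBIE (0.42 ± 0.16, 0.0437) and RELB (0.42 ± 0.09, 0.00104). The other 4 positive differences were RELA (0.33 ± 0.08, 0.00203), TNFAIP3 (0.29 ± 0.06, 0.000657), NFKB2 (0.25 ± 0.07, 0.0038) and NFKBIA (0.17 ± 0.06, 0.0339), and NFKB1 was negative (-0.19 ± 0.07, 0.0413). The calls of NFKBIE and NFKB1 were lost with DESeq2 (0.167 and 0.204), and without 1 library 6 to 9 were called. NFKB1 and NFKBIE (adjusted p = 0.0612 to 0.19 and 0.0586 to 0.263) were lost without each single library except XRCC4 KO with ATRi replicate 2, and NFKBIA (0.0531 to 0.167) without each except that one and DKO with ATRi replicate 1. With ATRi in both, 9 of 10 members were higher in the DKO than in XRCC4 KO and RELA was lower, where 71.8% of all genes were called, 35.7% higher and 36.1% lower, and BIRC3 differed most (1.25 ± 0.07, 4.75e-09). NFKB2 there (0.17 ± 0.05, 0.00137) was lost without XRCC4 KO with ATRi replicate 2 (0.0824). RELA there was -0.14 ± 0.05 (0.0294) in counts, a call lost without XRCC4 KO with ATRi replicate 1 (0.262) and without DKO with ATRi replicate 2 (0.131). It was 0.56 on the FPKM scale (limma adjusted p = 0.00357), with 94.6 and 97.1 FPKM in the DKO, against 66.1 and 63.5 FPKM in XRCC4 KO.

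Other genes of the pathway moved with ATRi in the DKO in both directions. Of 16 further IkB proteins and inhibitors 9 rose and 3 fell: TRAF1 was at 10.4 ± 0.0987 CPM, against 4.94 ± 0.0686 CPM, and CYLD, a deubiquitinase that limits IKK signalling, at 98.9 ± 0.287 CPM, against 50.0 ± 0.629 CPM (SD, n = 2). Of 26 IKK genes and adaptors 9 rose and 11 fell, with MAP3K14, the kinase NIK of the p100 route, at 28.0 ± 0.545 CPM, against 13.8 ± 0.959 CPM. Of 26 other target genes 8 rose and 15 fell, median -0.14, so this list did not rise as a whole. GADD45B, IL6 and PTGS2 were among those that rose, GADD45B to 181 ± 1.26 CPM, against 42.6 ± 2.04 CPM. Among the ligand genes IL1B fell to 429 ± 14.2 CPM, against 876 ± 45.6 CPM. The summed immune marker level was 127 and 122 CPM with ATRi, against 72.9 and 79.6 CPM in the DKO without it, and its part in the result was not tested.

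**Figure D2:**
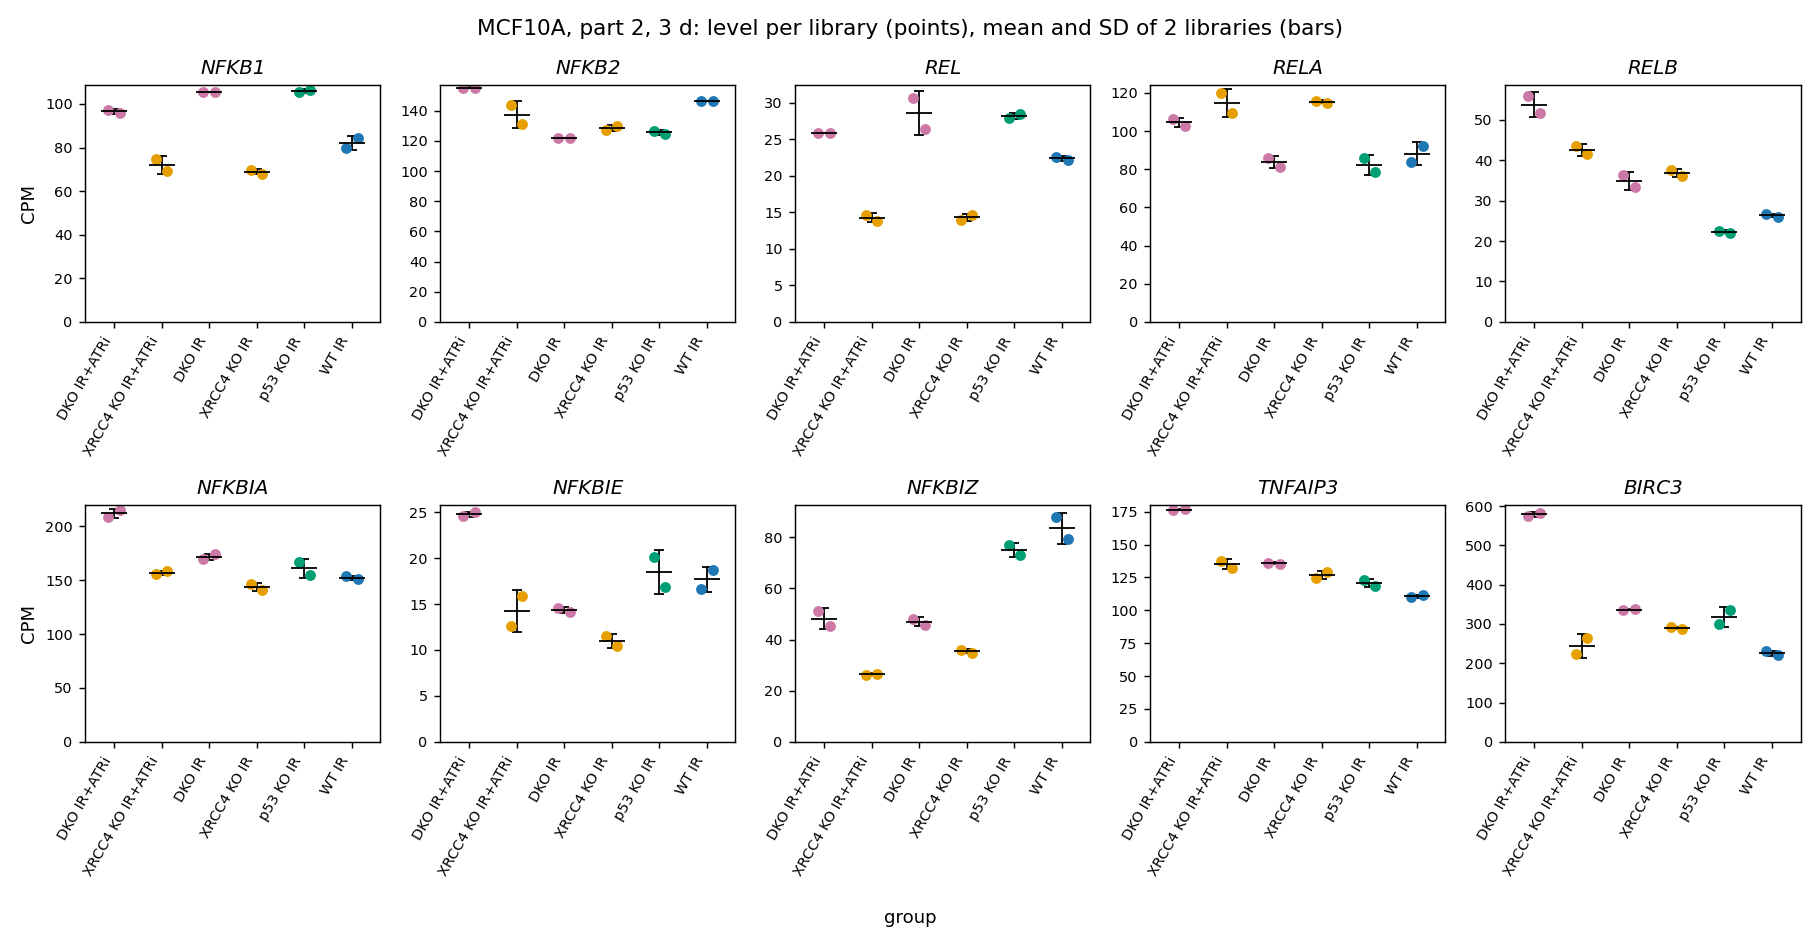
Level of each gene in the 12 MCF10A libraries of part 2 at 3 days, in CPM on linear axes that start at 0. Points are libraries, horizontal bars the mean of 2 libraries and whiskers its SD. BIRC3 is highest in the DKO with ATRi, 574 and 583 CPM, and NFKBIZ is highest in WT, 87.8 and 79.3 CPM.

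**Figure D3:**
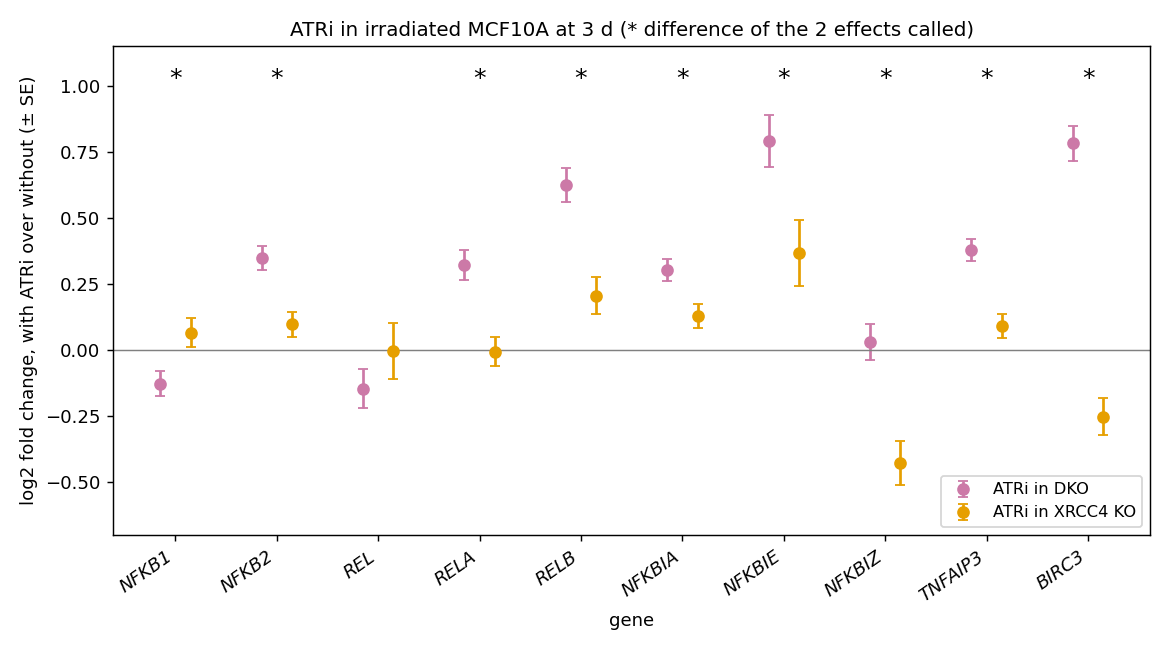
Log2 fold change with ATRi over without it for each gene in the DKO and in XRCC4 KO at 3 days, with its SE as whiskers. Stars mark the 9 genes whose difference between the 2 lines was called by edgeR, and BIRC3 lies furthest apart, 0.78 in the DKO and -0.25 in XRCC4 KO.

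In RPE-1, where the study asked about signalling that does not need cGAS, all 10 members rose in p53 KO against WT and all 10 rose in WT cGAS against WT. These comparisons share the WT libraries. TNFAIP3 was at 109 and 119 CPM in p53 KO, 537 and 578 CPM in WT cGAS, against 25.5 and 29.0 CPM in WT. It was 4.17-fold higher in p53 KO (log2 2.06 ± 0.07, edgeR adjusted p = 2.23e-13) and 20.4-fold higher in WT cGAS (4.35 ± 0.07, 9.72e-18). BIRC3 stood at 22.1 and 24.1 CPM in p53 KO and 44.5 and 48.9 CPM in WT cGAS, against 5.64 and 4.57 CPM in WT, log2 fold changes of 2.19 ± 0.12 (2.33e-11) and 3.20 ± 0.11 (1.97e-14). For both feedback genes the 3 groups stood in the order WT cGAS, p53 KO, WT without overlap.

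The 3 inhibitor genes also rose. NFKBIA had 130 and 131 CPM in p53 KO and 306 and 312 CPM in WT cGAS, against 40.4 and 50.6 CPM in WT, log2 fold changes of 1.51 ± 0.07 (edgeR adjusted p = 1.57e-09) and 2.76 ± 0.07 (2.88e-12). NFKBIZ had 126 and 133 CPM, 180 and 191 CPM, and 34.9 and 39.4 CPM in the same order (1.80 ± 0.06 and 2.32 ± 0.06). NFKBIE had 23.3 and 27.3 CPM, 48.9 and 45.4 CPM, and 16.9 and 16.1 CPM (0.62 ± 0.10 and 1.52 ± 0.09). Here too no groups overlapped, and NFKBIE changed least of the inhibitors in p53 KO.

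All 5 subunit genes rose as well. RELB had 31.8 and 35.4 CPM in p53 KO, 66.1 and 62.6 CPM in WT cGAS, against 14.9 and 18.6 CPM in WT (1.00 ± 0.10 and 1.94 ± 0.09). NFKB2 had 160 and 174 CPM, 303 and 298 CPM, and 96.6 and 104 CPM (0.73 ± 0.05 and 1.58 ± 0.05), and NFKB1 73.8 and 76.2 CPM, 116 and 114 CPM, and 43.1 and 47.4 CPM (0.73 ± 0.06 and 1.34 ± 0.06). REL had 14.4 and 12.1 CPM, 16.2 and 14.4 CPM, and 7.50 and 7.43 CPM (0.83 ± 0.13 and 1.04 ± 0.13), and RELA 132 and 137 CPM, 164 and 160 CPM, and 91.6 and 93.0 CPM (0.54 ± 0.05 and 0.81 ± 0.05). RELA had the smallest log2 fold change of the 10 in both comparisons, and TNFAIP3 and BIRC3 the largest. All edgeR adjusted p-values of these 5 genes were at or below 1.86e-05.

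The 10 of 10 called in p53 KO stand beside 66.7% of all genes called (34.2% higher and 32.5% lower), and the 10 of 10 in WT cGAS beside 59.8% (29.8% higher and 30.0% lower). Medians over the members were 0.91 and 1.76, with 0.03 and 0.02 over all genes tested. Without each single library, the WT library with more MB21D1 counts among them, 10 of 10 members stayed called in both. p53 KO was below WT cGAS for 9 of 10 members, where 64.7% of all genes were called, 32.8% lower and 31.8% higher, with TNFAIP3 furthest apart (-2.29 ± 0.05, 1.94e-15) and REL not called (-0.21 ± 0.11, 0.0898). Since REL passed without WT cGAS replicate 2 (0.0484) and without p53 KO replicate 1 (0.0244), its place between the groups is uncertain.

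Of 25 other target genes 19 rose and 5 fell in p53 KO, median 1.49, and 24 rose and 1 fell in WT cGAS, median 2.56. CCL2 and ICAM1, a chemokine and an adhesion molecule, were among the genes that fell in p53 KO: CCL2 was at 5.66 ± 1.08 CPM, against 102 ± 5.95 CPM in WT, and ICAM1 at 4.34 ± 0.429 CPM, against 31.0 ± 1.42 CPM (SD, n = 2). PTGS2 rose to 70.9 ± 3.21 CPM, against 5.50 ± 0.504 CPM. In WT cGAS IL6, an inflammatory cytokine, was at 940 ± 75.1 CPM, against 26.3 ± 0.766 CPM, and CFB at 173 ± 1.25 CPM, against 3.38 ± 0.337 CPM. Of 9 ligand genes 7 rose in p53 KO and 9 in WT cGAS, with 0 lower. Of 26 IKK genes and adaptors 10 rose and 9 fell in p53 KO, median 0.01, and 14 rose and 6 fell in WT cGAS, median 0.23. Of 15 receptor genes 7 rose and 5 fell in p53 KO, and 9 rose and 5 fell in WT cGAS. IRAK2, a kinase of the interleukin-1 and Toll-like receptor route, was at 47.2 ± 2.63 CPM in p53 KO, 185 ± 3.14 CPM in WT cGAS, against 27.7 ± 2.02 CPM in WT. The summed immune marker level stood in the same order as the members, with 169 and 171 CPM for p53 KO, 329 and 325 CPM for WT cGAS and 83.1 and 84.9 CPM for WT. CD3E, CD3D and MS4A1 were at 0 in 6 of 6 RPE-1 libraries, and the part of these markers in the result was not tested.

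**Figure D4:**
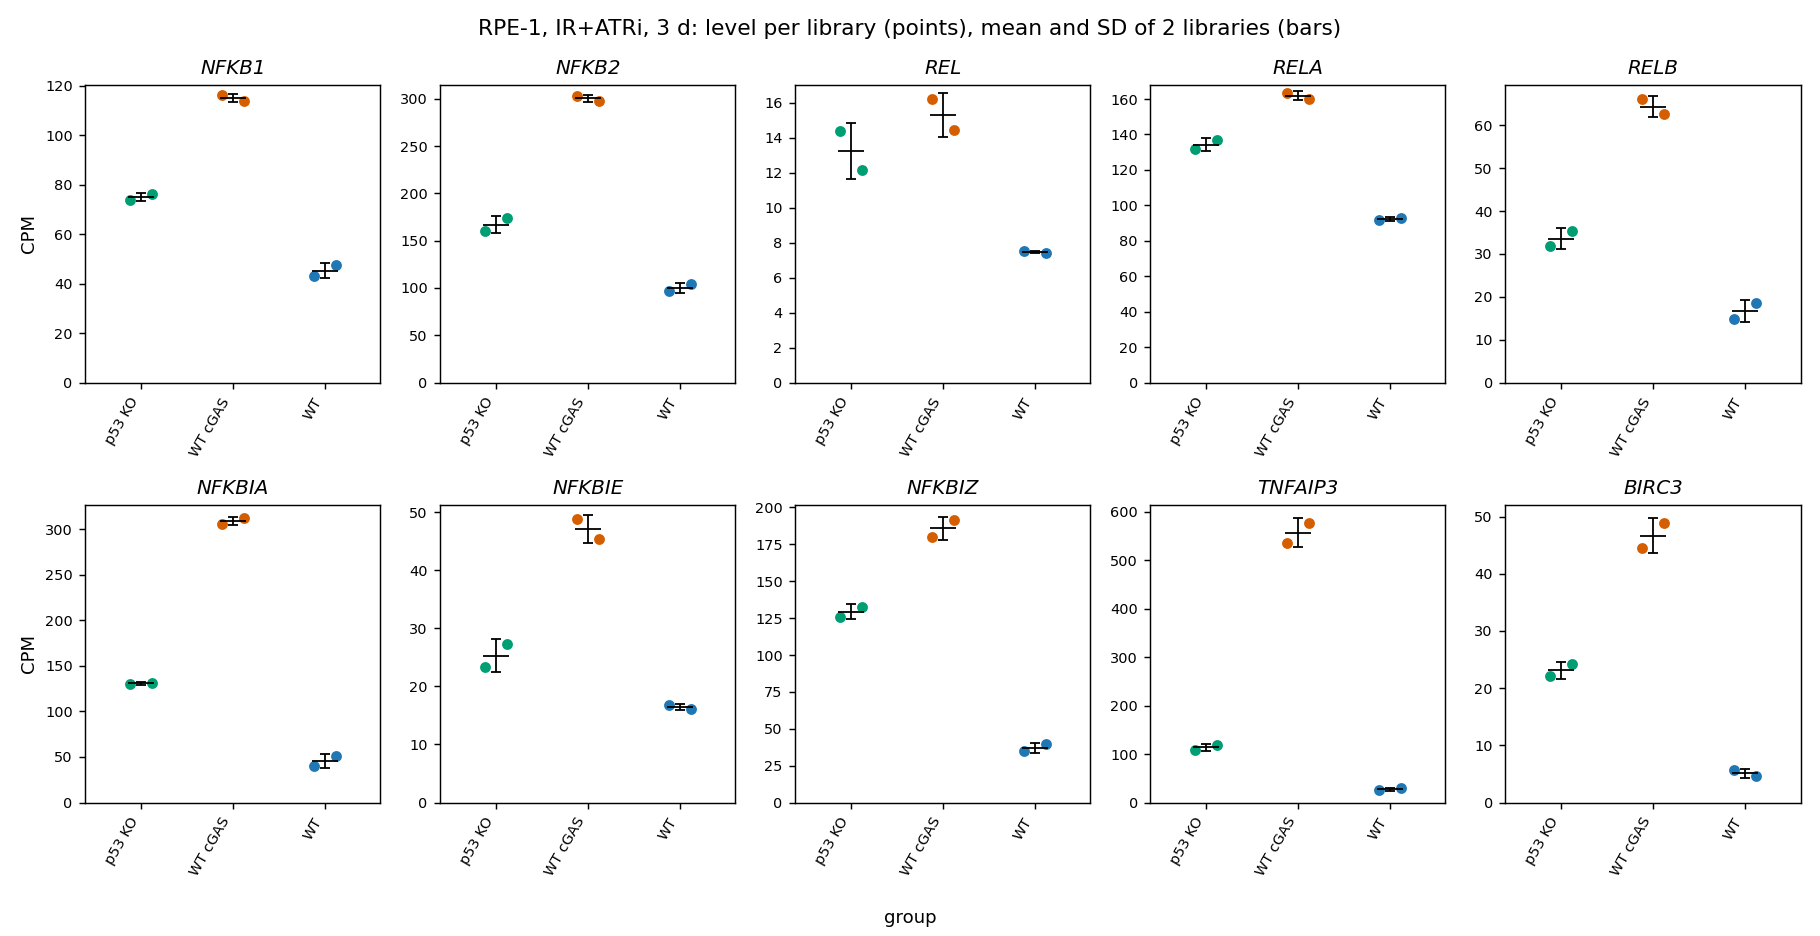
Level of each gene in the 6 RPE-1 libraries, all irradiated with ATRi and collected at 3 days, in CPM on linear axes that start at 0. Points are libraries, horizontal bars the mean of 2 libraries and whiskers its SD. The mean is highest in WT cGAS and lowest in WT for every gene, and for TNFAIP3 the values are 537 and 578 CPM in WT cGAS, against 25.5 and 29.0 CPM in WT.

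Across the 17 comparisons, 16 of 70 member tests were called in part 1, 49 of 70 in part 2 and 29 of 30 in part 3. The share of all genes called ran from 0.263% to 29.3% over the comparisons of part 1, from 17.0% to 71.8% in part 2 and from 59.8% to 66.7% in part 3. RELB, TNFAIP3 and BIRC3 were each called higher in 7 comparisons, and NFKBIZ was called lower in 6. TNFAIP3 had the widest range of log2 fold change, -2.29 to 4.35, and RELA the narrowest, -0.46 to 0.81. Comparisons that share libraries are not independent of each other.

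**Figure D5:**
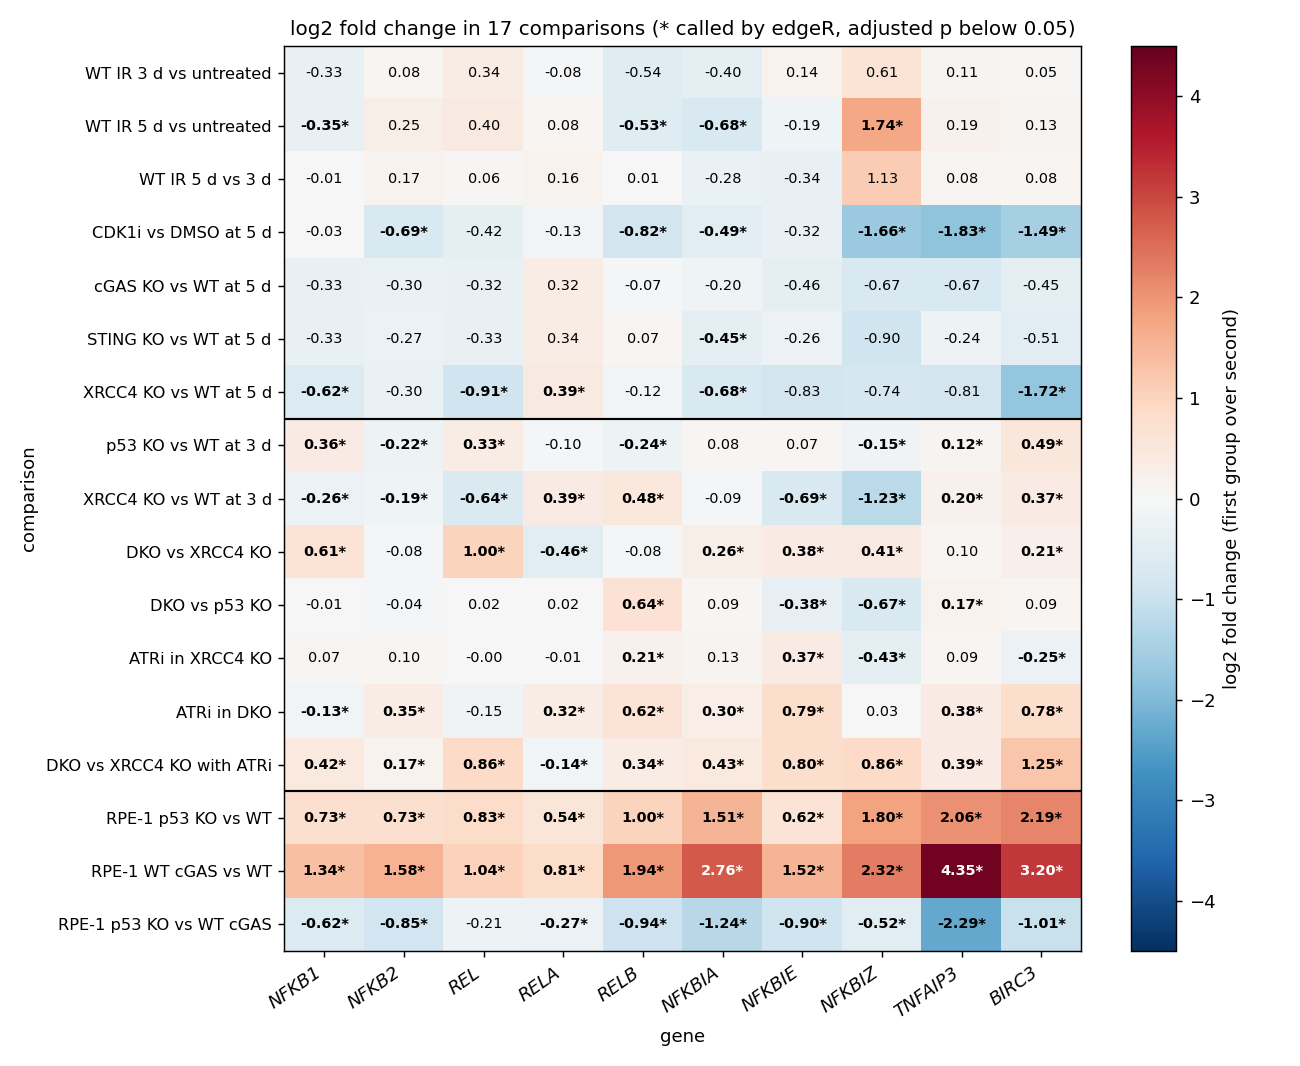
Log2 fold change of each gene in 17 comparisons, the first-named group over the second, with a colour scale from -4.5 to 4.5. Bold values with a star were called by edgeR at an adjusted p below 0.05, and lines separate the 3 parts. The RPE-1 rows hold the largest values, up to 4.35 for TNFAIP3, and the rows for 3 days against untreated, 5 against 3 days and cGAS KO hold no called value.

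Over the 13 MCF10A groups, mean log2 CPM of TNFAIP3 and BIRC3 had the highest Pearson correlation among pairs of members, 0.85, followed by NFKB2 and NFKBIE at 0.83. NFKB1 and RELA had the lowest, -0.67. Outside the members, among 10514 genes with a mean of at least 5 CPM, the nearest to NFKBIA were CEBPB (0.94), ZCCHC3 (0.93) and MT1X (0.92), to BIRC3 GPR176, SMAD7 (both 0.88) and GORAB (0.87), and to TNFAIP3 PARP3 (0.92), HSD17B2 (0.90) and MYDGF (0.86). NFKB1 was nearest to MTFP1 (0.98), ARL6IP6 and CCHCR1 (both 0.97), RELB to KIAA1191 (0.91), RSRP1 and MYDGF (both 0.90), and NFKB2 to DAD1 (0.95), PPP4C (0.94) and TRIP4 (0.91). REL was nearest to JMJD1C (0.96), NUFIP2 (0.94) and ZNF148 (0.91), and RELA to SSSCA1 (0.97), POLR3D (0.96) and TSSC4 (0.95). NFKBIE was nearest to ZNF697, ZBTB18 (both 0.96) and MAFG (0.95), and NFKBIZ to GAB1 (0.92), CLEC2B (0.91) and GSDMC (0.89). These groups share cell line and, within a part, scaling, and parts 1 and 2 differ as experiments, so the correlations describe these 13 means only.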

How the data were processed

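Polyadenylated RNA of 32 libraries was measured. The expected counts per gene and the FPKM values were deposited by the authors; bcl2fastq, FastQC, STAR, Cuffnorm, DESeq2 and hg19 are named, without versions, in the submitters' processing notes, and for the annotation the sources used here give none. Rounded expected counts were tested with edgeR 4.0.16 in R 4.3.3 (robust quasi-likelihood, TMM scaling, genes kept by filterByExpr), 1 fit for each of 3 parts: 15190, 16632 and 15469 of 60332 genes, all 10 members among them. The Benjamini-Hochberg adjustment took in every tested gene of a part, and calls needed an adjusted p below 0.05. A log2 fold change carries its SE, and a level the SD of 2 libraries. With 2 libraries against 2, no exact permutation test can reach 0.05. Alternatives were DESeq2 1.42.0, limma 3.58.1 on log2(FPKM + 1) or log2(FPKM + 0.1) of the deposited FPKM, edgeR without a count filter, with the compared libraries only, with a replicate block, with 1 library left out and, added after seeing the data, with the legacy quasi-likelihood method. The fits were tested on simulated data. Gene starts in the deposited table count from 0 and are printed from 1. Named genes outside the members are the 3 nearest by correlation and listed pathway genes. The members and lists were chosen with earlier results of these data known.

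The replicate numbers were not taken to pair the libraries, since not every pair of groups deviated together: the correlation of their deviations was -0.27 to 0.44 in part 1, above 0.1 in 7 of 21 pairs of groups, and above 0.1 in 0 of 15 and 0 of 3 pairs in parts 2 and 3.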

Additional observations from a re-analysis of the deposited data

Results flagged for a closer look

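The effect of ATRi differed between the DKO and XRCC4 KO for 9 members in the edgeR test of the difference. On the log2 scale the effect in the DKO minus that in XRCC4 KO was 1.03 for BIRC3, 0.46 for NFKBIZ, 0.42 for NFKBIE, 0.42 for RELB, 0.33 for RELA, 0.29 for TNFAIP3, 0.25 for NFKB2, 0.17 for NFKBIA and -0.19 for NFKB1.

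The effect of p53 loss differed between XRCC4 KO and WT MCF10A cells for 6 members in the same kind of test. In XRCC4 KO minus WT it was 0.67 for REL, 0.56 for NFKBIZ, 0.25 for NFKB1, 0.18 for NFKBIA, -0.28 for BIRC3 and -0.36 for RELA.

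Under like-named contrasts some members had opposite signs in different parts, and these differences were not tested. XRCC4 KO against WT gave -0.81 for TNFAIP3 and -1.72 for BIRC3 at 5 days in part 1, where TNFAIP3 was not called (adjusted p = 0.0598 with edgeR), and 0.20 and 0.37 at 3 days in part 2. p53 KO against WT gave 0.73 for NFKB2, 1.00 for RELB and 1.80 for NFKBIZ in RPE-1 with ATRi, and -0.22, -0.24 and -0.15 in MCF10A without it. Those 3 MCF10A values were -0.08, 0.02 and 0.08 with limma on FPKM and were not called there, so the direction of RELB and NFKBIZ rests on the counts. DESeq2 did not call RELB or NFKBIZ either (adjusted p = 0.0744 and 0.152). Time, part and the DMSO named only for the 5-day WT cells cannot be told apart in the first pair of contrasts. Nor can cell line and ATRi in the second.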

How the results depend on the processing

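A value was counted as kept if it stayed on its side of the threshold and, where either fit called it, kept its direction. Of 190 member values, 175 were kept with DESeq2, 189 with the legacy method, 158 and 157 with limma on FPKM with a pseudocount of 0.1 and 1, 149 with no FPKM filter, 176 without a count filter and 163 with the compared libraries only. Values called in neither fit changed sign in 33 of 840 alternative values in part 1, 35 of 1160 in part 2 and 0 of 360 in part 3. Calls held in every alternative for 2 of 16 in part 1, 33 of 64 in part 2 (both differences of effects included) and 25 of 29 in part 3. The numbers were not taken to pair the libraries. The replicate block kept 188 values, and the count at 3 days against untreated was 1 (RELB, adjusted p = 0.0227) in place of 0. NFKBIE with ATRi in XRCC4 KO lost its call with the block (0.0519).

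On the FPKM scale the direction turned for NFKB1 with ATRi in the DKO (0.11), for NFKBIZ (0.083 with a pseudocount of 0.1 and 0.081 with 1) and RELB (0.016 and 0.015) in p53 KO against WT, and for RELA in the DKO against XRCC4 KO without ATRi (0.081 and 0.080) and with it (0.56). RELB in the DKO against XRCC4 KO was 0.27 with a pseudocount of 0.1. The cause was not tested.

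With limma on FPKM (pseudocount 0.1, 1 and no filter) the members called were 5, 5 and 3 for the difference in ATRi effects, 2, 1 and 0 for ATRi in XRCC4 KO, 3, 3 and 2 for CDK1i, 2, 2 and 2 for the DKO against p53 KO, 3, 3 and 3 for p53 KO in MCF10A, 3, 3 and 2 for the difference in p53 effects, and 0, 0 and 0 for STING KO. DESeq2 called 2 for ATRi in XRCC4 KO, 1 for cGAS KO, 4 for p53 KO in MCF10A, 2 for STING KO and 1 for 5 against 3 days. Without a count filter 1 was called for ATRi in XRCC4 KO and 0 for STING KO. With the compared libraries only, counts were 2 for ATRi in XRCC4 KO, 0 for CDK1i, 4 for cGAS KO, 1 for 5 days against untreated and 8 for XRCC4 KO at 5 days. Of all genes tested in that setting, 2459 of 14117, 0 of 14358, 3167 of 14530, 1132 of 14495 and 4898 of 14247 were called, in the same order.

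Leaving out 1 library, where the lone library is assumed to vary like the other groups, gave 0 to 2 calls at 3 days, 2 to 4 at 5 days, 2 to 5 for CDK1i, 0 to 1 for STING KO, 2 to 3 for XRCC4 KO at 5 days, 5 to 7 for p53 KO, 5 to 6 for the DKO against XRCC4 KO, 1 to 3 for ATRi in XRCC4 KO, 7 to 8 for ATRi in the DKO, 6 to 9 for the difference in ATRi effects and 3 to 7 for that in p53 effects. Each group had 2 libraries. Over all genes, the variation between libraries of a group that edgeR estimated (common coefficient) came to 0.187 for part 1, 0.0361 for part 2 and 0.0345 for part 3.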
